A study of Homo sapiens with 6 samples.

Results

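The genes described here encode the proteins of the cytosolic ribosome, measured in DLD1 cells that received a lentivirus carrying a CDKL1 shRNA or a control shRNA. DLD1 is an established human colorectal adenocarcinoma line, and CDKL1 is a serine/threonine kinase related to the cyclin-dependent kinases. An shRNA is a short hairpin RNA that the cell processes into a small RNA directed against a chosen transcript. Each group had 3 arrays of total RNA, so 6 Affymetrix arrays were compared, and both groups carried a lentivirus. No uninfected cells and no second hairpin were among the samples, so an effect of less CDKL1 and an effect of the hairpin on other transcripts cannot be told apart. The values are log2 expression levels, on which a difference of 1 is a doubling.

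Members were the genes whose probe set carried a single symbol of the RPL or RPS series or RPLP0 to RPLP2, each read by its brightest probe set over the 6 arrays. Of 91 name matches, 4 pseudogenes, 10 RPS6K kinases and RPS4Y1 were left out. This gave 76 members of 18132 genes. They hold 39 proteins of the large subunit, 2 proteins of its stalk, 23 proteins of the small subunit and 8 paralogs, which are second copies of a ribosomal protein gene. The last 4 met the name rule only: an antisense RNA (RPL26L1-AS1), a divergent transcript (RPL34-DT), a protein that binds RPS19 (RPS19BP1) and RPS4Y2. The 64 subunit and stalk genes are called the core genes below. Another 12 core genes were not analysed here.

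The cytosolic ribosome translates the messages of the nuclear genome. Its small subunit decodes the message, its large subunit forms the peptide bonds, and the acidic proteins of the stalk recruit the elongation factors. Ribosomal protein messages are among the most abundant of a growing cell and mostly begin with a run of pyrimidines, the 5′ terminal oligopyrimidine (TOP) tract, through which mTORC1 and LARP1 control their translation. Free RPL5 and RPL11, with the 5S RNA, bind MDM2 and thereby link ribosome assembly to p53. DLD1 cells carry a mutant p53.

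The start of a ribosomal protein message shows this tract directly, so the starts of the members on which the results turn are printed first. Sequences are those of RefSeq on GRCh38.p14, 5′ to 3′, with 15 bases upstream of the transcript start followed by its first 15 bases, which belong to the first exon. Capitals mark the tract, defined as a C at the start and at least 4 more pyrimidines. RPL18, RPL13 and RPL27A are shown because they passed the test between the groups, RPS6, RPS19, RPL11 and RPLP2 for their roles, and the rest as pairs of parent and paralog:
RPL18 (chr19:48619164-48619193, minus strand): accccagcccgttctCTCTTTCCggacctg
RPL13 (chr16:89560667-89560696, plus strand): ttgcggggccgcttcCTTTCCgctcggctg
RPL27A (chr11:8682777-8682806, plus strand): ttggcgaaggccttcCTTTTTCgtctgggc
RPS6 (chr9:19380222-19380251, minus strand): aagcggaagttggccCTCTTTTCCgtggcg
RPS19 (chr19:41860240-41860269, plus strand): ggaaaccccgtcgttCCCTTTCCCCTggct
RPL11 (chr1:23691791-23691820, plus strand): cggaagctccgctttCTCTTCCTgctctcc
RPLP2 (chr11:809952-809981, plus strand): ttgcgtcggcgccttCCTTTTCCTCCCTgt
RPL22 (chr1:6199581-6199610, minus strand): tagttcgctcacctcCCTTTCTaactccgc
RPL22L1 (chr3:170870181-170870210, minus strand): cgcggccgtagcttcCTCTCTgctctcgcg
RPS27 (chr1:153990747-153990776, plus strand): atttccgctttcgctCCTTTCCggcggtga
RPS27L (chr15:63157463-63157492, minus strand): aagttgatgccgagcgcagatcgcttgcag
RPL26 (chr17:8383179-8383208, minus strand): aagcagcgtgtagttCTCTTCCCTTTTgcg
RPL26L1 (chr5:172958714-172958743, plus strand): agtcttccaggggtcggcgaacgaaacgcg

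A tract of at least 5 pyrimidines was found at an annotated start of 41 of the 54 core genes with an entry in the RefSeq promoter table, or 75.9%. Among all 27305 genes of that table the share was 5.14%, and among the measured genes with an entry it was 6.32%. The tract spanned 5 to 19 bases in the core genes, with a median of 8. RPL18 had 8 such bases, RPL13 had 6 and RPL27A had 7, and RPL23, the remaining gene that passed the test, is named only. Of 6 paralogs with an entry, only RPL22L1 had a tract, while the starts of RPS27L and RPL26L1 printed above had none. Among other messages known to carry a TOP tract, such as those of elongation factors, 10 of 11 genes with an entry had one (90.9%). Genes of the mitochondrial ribosome stood at 7.46%.

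The promoter window of 250 bases before and 50 bases after the start was also searched on both strands for the ETS family motif CCGGAAG and for the YY1 motif AAGATGGC; neither motif holds the other, and matches were allowed to overlap. The ETS letters were present in 38.9% of the core genes against 12.2% of all promoter table genes and 16.9% of the measured genes with an entry. Genes of the mitochondrial ribosome held them in 43.3%, paralogs in 33.3% and other TOP messages in 27.3%. The YY1 letters were present in 11.1% of the core genes, which is 6 of 54, against 3.52% of all promoter table genes and 4.83% of the measured ones. Genes of the mitochondrial ribosome held them in 29.9% and other TOP messages in 27.3%, both higher shares than the core genes. These are matches of letters and were not related to any measurement of binding.

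The hairpin's target could not be checked firmly on these arrays. The CDKL1 probe set read 4.51, 4.42 and 4.17 in control and 4.25, 4.20 and 4.08 in CDKL1 shRNA cells, so the groups overlapped. It averaged 4.37 ± 0.18 (SD, n = 3) in control shRNA cells and 4.17 ± 0.09 (SD, n = 3) in CDKL1 shRNA cells. Both means lie within the range of the background control probe sets, 2.97 to 4.92, and the difference of -0.19 did not pass the limma test (adjusted p = 0.219). Without control replicate 3 it was -0.29 and passed (adjusted p = 0.0489, limma). All 10 epithelial markers were above background. KRT20 rose by 0.52 (adjusted p = 0.000746), VIL1 fell by 0.57 (adjusted p = 0.019, limma for both) and the other 8 did not pass. Also above background were 3 of 6 fibroblast markers and 3 of 5 measured leukocyte markers. Of the leukocyte markers, CD68 and CD163 rose by 0.39 and 0.65 (adjusted p = 0.0171 and 0.000772, limma), the latter at a mean of 4.89 within the background range. The other 3 did not pass and had changes below 0: PTPRC, also within the background range at 3.55, by -0.14, CD3E by -0.15 and CD14 by -0.07. The summed leukocyte level, in which CD68 and CD163 alone were higher, was 26.2 to 26.3 in the control arrays and 26.7 to 27.1 in the others. The difference between the 3′ and 5′ ACTB control probe sets, a measure of RNA integrity, was 1.40 ± 0.0133 (SD, n = 3) in control and 1.60 ± 0.115 (SD, n = 3) in CDKL1 shRNA cells (exact two-sided permutation p = 0.1, the smallest that 3 against 3 arrays allow). For GAPDH the same difference was 0.20 ± 0.018 (SD, n = 3) in control and 0.27 ± 0.026 (SD, n = 3) in CDKL1 shRNA cells. Its exact two-sided permutation p was also 0.1, and the groups overlapped for neither ACTB nor GAPDH. The part of RNA integrity and of these markers in the results below was not tested beyond the fits given with them.

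Few ribosomal protein genes passed the test between control and CDKL1 shRNA cells, and most estimated changes were small. Of the 76 members, 1 rose (RPL27A) and 3 fell (RPL18, RPL23 and RPL13) at an adjusted p under 0.05 in limma, adjusted over all 18132 genes. That is 5.26% of members, where 16.8% of all genes passed the same test, 8.97% higher and 7.79% lower. At an unadjusted p under 0.05 the shares were 7.89% of members and 29.8% of all genes. The median log2 change of the members was -0.0061, beside -0.014 for all genes, and their median absolute change was 0.0265 beside 0.091.

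A test that is not passed does not show equal levels, so the width of the intervals was examined as well. For 61 of the 76 members (80.3%) the whole 95% interval of the change lay within 0.2 log2 units of 0 on either side, which is 1.15-fold. Among all genes, whose median level was 7.28 beside 14.06 for the members, 28.4% met that bound. Genes of like level are compared below. For the core genes the count was 56 of 64 (87.5%), and in the small subunit it was 22 of 23. A change of less than 0.1 log2 units was estimated for 65 members (85.5%) against 53.7% of all genes. RPS21, a small subunit protein, shows how close the arrays lay: 14.28, 14.28 and 14.28 in control and 14.28, 14.29 and 14.29 in CDKL1 shRNA cells. Its limma interval still ran from -0.09 to 0.10, and the median standard error of the members was 0.04. The interval count and the count of changes under 0.1 rest on the same estimates and are not separate evidence.

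**Figure D1:**
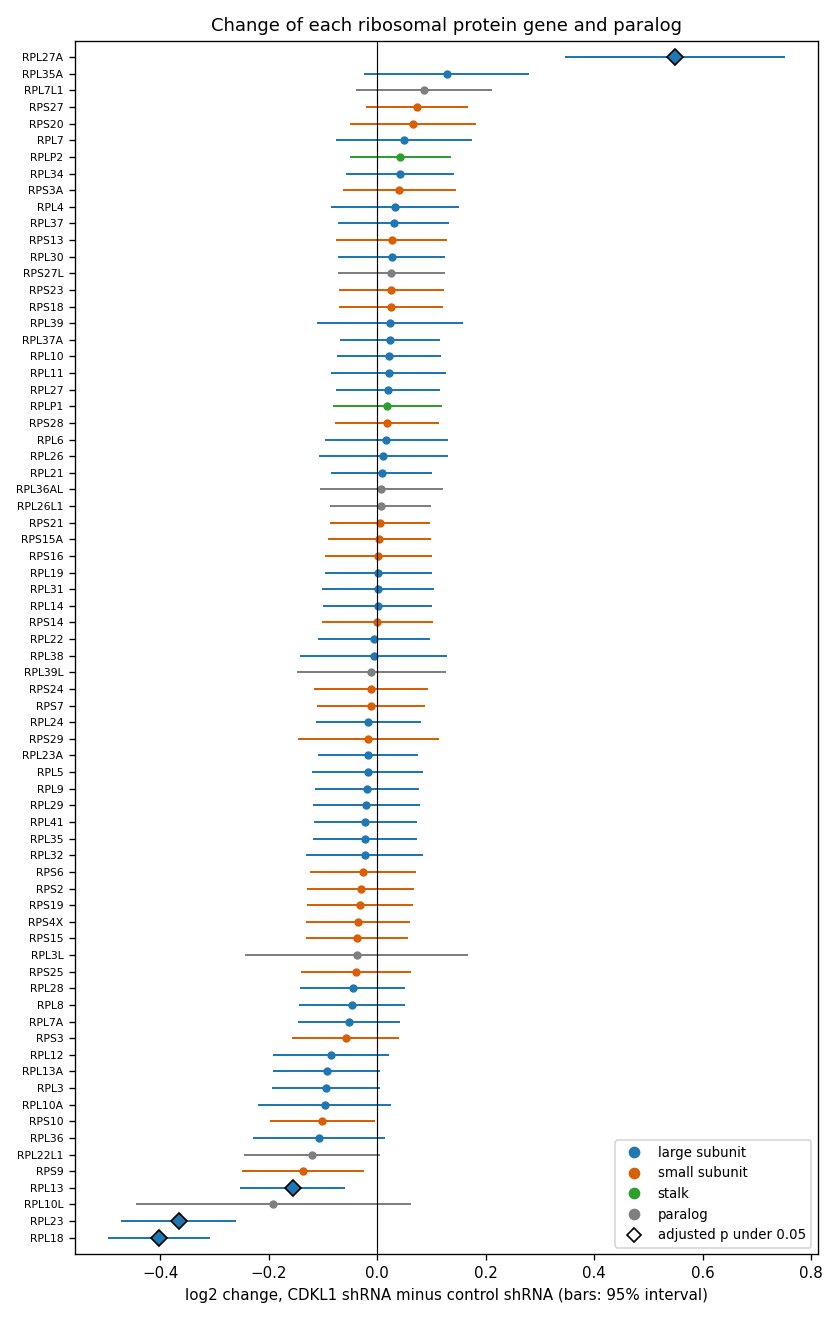
Log2 change (CDKL1 shRNA minus control shRNA) with its 95% interval from limma for the core ribosomal protein genes and paralogs, ordered by change. Most intervals cross 0 and lie within 0.2, while RPL18 and RPL23 stand at the low end and RPL27A stands at the high end.

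Most members sat near the top of the array's scale. The core genes had levels from 7.95 to 14.78 with a median of 14.12, and the highest value on any array was 14.83. Of the 63 genes with a mean above 14, 42 were members. The bright end was therefore compared on its own, with a limit of 13 chosen after the data were seen. Of 60 members above it, 0 rose and 2 fell (3.33%), with a median absolute change of 0.0258. Of the 145 other genes above it, 10 rose and 4 fell (9.66%), with a median absolute change of 0.0476. The whole interval lay within 0.2 of 0 for 91.7% of these members and 75.9% of those other genes. A change of less than 0.1 was estimated for 91.7% and 77.9%. The part of signal near the scanner's upper end in the small changes was not tested.

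**Figure D2:**
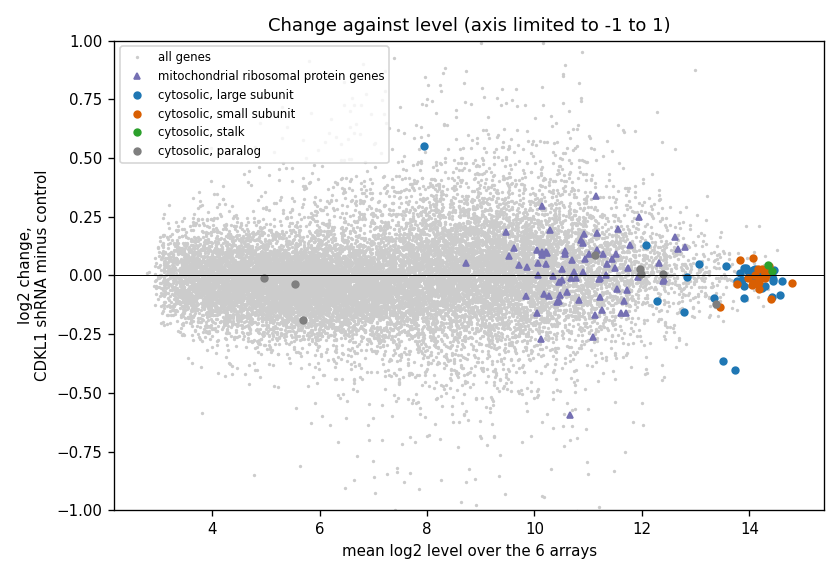
Log2 change (CDKL1 shRNA minus control shRNA) against the mean log2 level over 6 arrays for all genes, with cytosolic and mitochondrial ribosomal protein genes marked; 32 genes changed by more than 1 log2 unit and are not drawn. Most cytosolic genes crowd near 0 at the right edge, where the core genes have a median level of 14.12. RPL27A stands apart at 7.95 with the largest rise, and the paralogs RPL10L, RPL3L and RPL39L lie at lower levels still.

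In the large subunit, 1 of 39 measured genes rose and 3 fell (10.3%, against 16.8% of all genes), and the median change was -0.0064. RPL18 fell most among all members. Its levels were 13.93, 13.92 and 13.93 in control and 13.55, 13.51 and 13.52 in CDKL1 shRNA cells. The 3 CDKL1 shRNA arrays all lay below the 3 control arrays, with a gap far wider than the spread within either group. The means were 13.93 ± 0.0033 and 13.53 ± 0.020 (SD, n = 3 each), a change of -0.40 with a standard error of 0.04 (adjusted p = 0.00101, limma). This is a change of -24.3%, with an interval from -29.1% to -19.3%.

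RPL18 had 2 further probe sets, fitted in a separate test over all probe sets. The probe set 11744147_x_at changed by -0.43 (adjusted p = 0.0019, limma), close to the -0.40 of the brightest one. The dim probe set 11763719_a_at, at a mean level of 7.19, changed by -0.04 and did not pass. RPL18 is thus the only one of the 4 called genes with a second probe set that passed in the same direction, since each of the other 3 had 1 probe set with a single symbol. RPL18 variants are known from Diamond-Blackfan anaemia, an inherited failure of red cell production caused mostly by ribosomal protein genes.

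RPL23 is a large subunit protein that, like RPL5 and RPL11, can bind MDM2. Its levels were 13.71, 13.66 and 13.71 in control and 13.38, 13.30 and 13.30 in CDKL1 shRNA cells, so the groups did not overlap. The means were 13.69 ± 0.031 and 13.33 ± 0.042 (SD, n = 3 each). The change was -0.37 with a standard error of 0.04, or -22.4% (adjusted p = 0.00232, limma). Its probe set, 11757422_x_at, is of a type that can bind related transcripts.

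RPL13 showed a smaller fall. Its levels were 12.89, 12.83 and 12.87 in control and 12.70, 12.72 and 12.70 in CDKL1 shRNA cells, again without overlap. The change was -0.16 with a standard error of 0.04, or -10.3% (adjusted p = 0.0397, limma). The call was lost when any 1 of the 6 arrays was left out, with adjusted p-values from 0.0794 to 0.118, and when the array medians were subtracted (adjusted p = 0.0795, limma). RPL18, RPL23 and RPL27A kept their calls with each array left out, at adjusted p-values of at most 0.00774, 0.0149 and 0.0297 in limma.

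RPL27A was the only member that rose. Its levels were 7.48, 7.81 and 7.73 in control and 8.26, 8.18 and 8.24 in CDKL1 shRNA cells. Every CDKL1 shRNA array lay above every control array, and the control arrays spread more widely. The means were 7.68 ± 0.17 and 8.22 ± 0.041 (SD, n = 3 each), a change of 0.55 with a standard error of 0.09 (adjusted p = 0.00606, limma). This is 46.3% higher, with an interval from 27.2% to 68.2%. Its only probe set, 11736810_at, is the dimmest of the core genes, at the 58th percentile of all gene means, although RPL27A encodes a protein that every ribosome holds. Its mean was 7.95, beside a core median of 14.12. No brighter RPL27A probe set with a single symbol was at hand. Whether the rise holds for the bulk of the RPL27A message was therefore not tested.

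**Figure D3:**
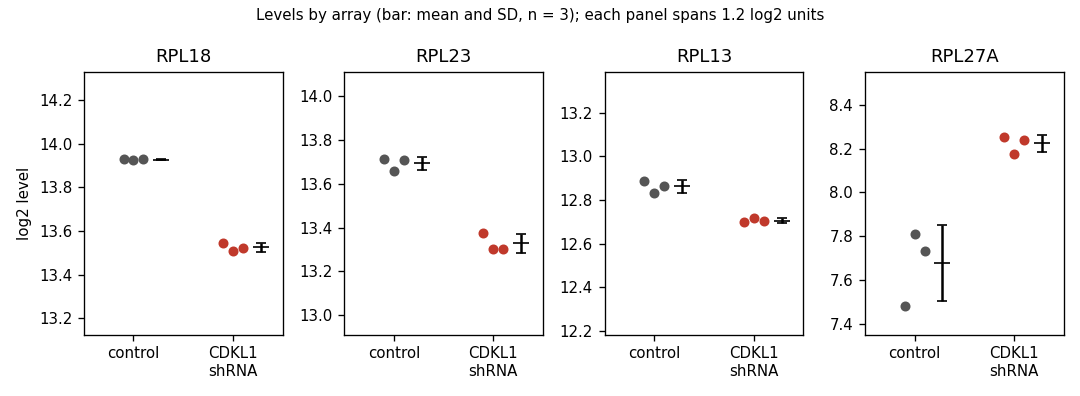
Log2 level on each array (points) with the group mean and SD (n = 3) for the 4 ribosomal protein genes that passed the test, control shRNA and CDKL1 shRNA shown apart. The groups do not overlap in any panel: RPL18 drops from 13.93 to 13.53 and RPL27A climbs from 7.68 to 8.22.

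The other 35 genes of the large subunit did not pass. RPL5 had levels of 13.87, 13.90 and 13.87 in control and 13.89, 13.82 and 13.87 in CDKL1 shRNA cells, and the groups overlapped (change -0.02, adjusted p = 0.834, limma). RPL11 had levels of 14.05, 14.08 and 14.12 in control and 14.06, 14.13 and 14.12 in CDKL1 shRNA cells (change 0.02, adjusted p = 0.806, limma). The intervals of both genes that encode the MDM2-binding pair lay between -0.12 and 0.13. RPL3, whose protein lies by the peptidyl transferase centre, changed by -0.10 (adjusted p = 0.178, limma) without overlap of the groups. RPL36 changed by -0.11 and RPL35A by 0.13, neither past the threshold.

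No gene of the small subunit passed, 0 of 23 in limma, and 2 had an unadjusted p under 0.05 (8.7%). Over all genes these shares were 16.8% and 29.8%. All 23 lay above a level of 13. Among the genes above that level that are no member, 9.66% passed and 22.1% had an unadjusted p under 0.05. The median change was -0.011, with extremes of -0.14 and 0.07. The 2 with an unadjusted p under 0.05 were RPS9 and RPS10, named after their values were seen. RPS9, a protein involved in the accuracy of decoding, had levels of 13.44, 13.55 and 13.55 in control and 13.37, 13.38 and 13.38 in CDKL1 shRNA cells (change -0.14, adjusted p = 0.0975, limma). RPS10 changed by -0.10 (adjusted p = 0.141, limma), and neither gene's groups overlapped. Whether they pass depends on the setting. RPS9 passed without control replicate 1 (adjusted p = 0.0451), and both genes passed among genes above the median level (adjusted p = 0.0227 and 0.0376) and with a variance that follows the level (adjusted p = 0.00634 and 0.0087). With that variance RPS27 also rose, by 0.07 (adjusted p = 0.0471, limma for all).

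RPS6, the substrate of the S6 kinases, had levels of 14.22, 14.18 and 14.18 in control and 14.18, 14.19 and 14.14 in CDKL1 shRNA cells. The groups overlapped, and the change was -0.03 with an interval from -0.12 to 0.07 (adjusted p = 0.72, limma). RPS19, the gene most often mutated in Diamond-Blackfan anaemia, had levels of 14.09, 14.10 and 14.09 in control and 14.06, 14.03 and 14.09 in CDKL1 shRNA cells. Its change was -0.03 (adjusted p = 0.664, limma), although the groups did not overlap. Of 16 measured genes of a Diamond-Blackfan list of 19 ribosomal protein genes, only RPL18 passed (6.25%, against 16.8% of all genes). Of the 16, 15 lay above a level of 13, where 9.66% of the genes that are no member passed.

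Neither measured stalk gene passed. RPLP1 had levels of 14.36, 14.43 and 14.42 in control and 14.44, 14.42 and 14.41 in CDKL1 shRNA cells (change 0.02, adjusted p = 0.816, limma). RPLP2 had levels of 14.32, 14.34 and 14.31 in control and 14.38, 14.37 and 14.36 in CDKL1 shRNA cells. Its groups did not overlap, yet the change of 0.04 did not pass (adjusted p = 0.526, limma). Of the 4 cytosolic ribosomal protein genes whose names fall outside the rule, only FAU was measured, with 14.03 in control, 14.13 in CDKL1 shRNA cells and a change of 0.10 (adjusted p = 0.187, limma).

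The groups did not overlap in 24 of the 76 members (31.6%), where 35.7% of all genes had no overlap. In 18 members all CDKL1 shRNA arrays lay below all control arrays (23.7%), where 17.6% of all genes did so, and in 6 members all lay above (7.89%), where 18.1% of all genes did so. After the array medians were subtracted the members numbered 9 below (11.8%) and 6 above (7.89%), beside 15.3% and 19.1% of all genes. With further quantile normalization they numbered 17 below (22.4%) and 8 above (10.5%), beside 19.8% and 16.9% of all genes. The array medians ran from 6.64 to 6.70.

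**Figure D4:**
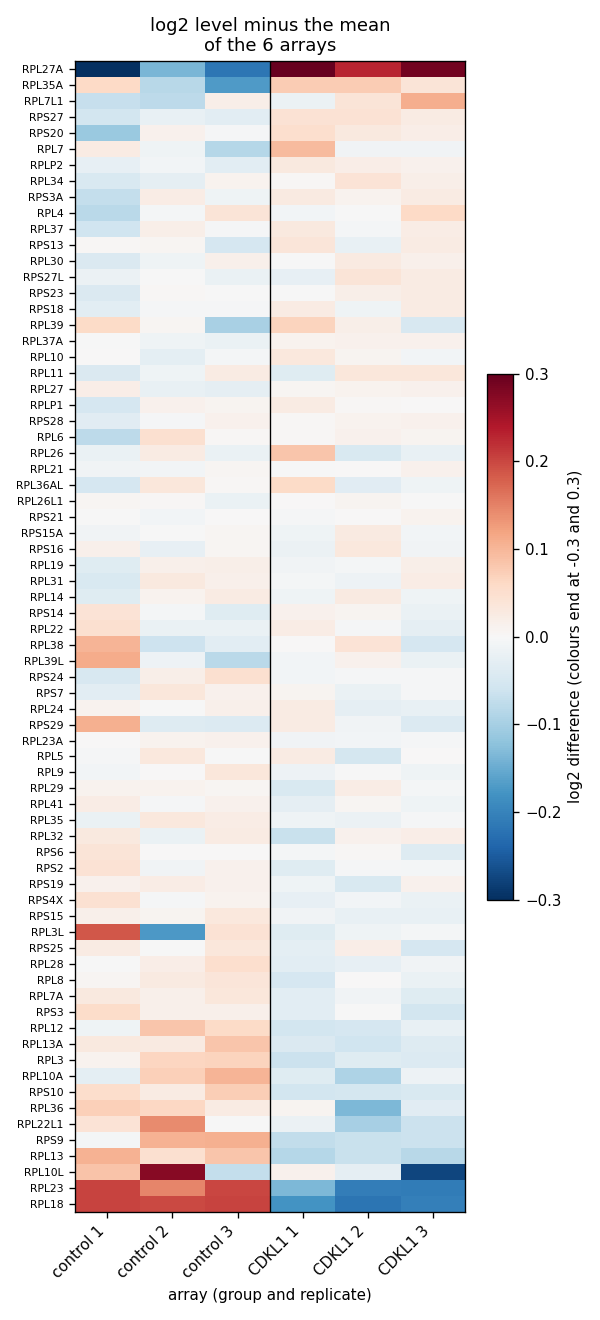
Heat map of the log2 level on each array (columns) minus the gene's mean over the 6 arrays, for the core genes and paralogs (rows, ordered by change; colours end at -0.3 and 0.3). Most rows are pale across all arrays, while RPL18 and RPL23 at the bottom and RPL27A at the top change colour between the groups.

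The paralogs gave 0 calls among 8 genes in limma, and none had an unadjusted p under 0.05. Over all genes these shares were 16.8% and 29.8%. RPL22L1, the paralog that can replace RPL22, had levels of 13.41, 13.51 and 13.37 in control and 13.35, 13.27 and 13.31 in CDKL1 shRNA cells. The groups did not overlap, and the change of -0.12 did not pass (adjusted p = 0.178, limma). RPL10L, best known from the testis, changed by -0.19 with overlapping groups (adjusted p = 0.289, limma). RPS27L, a p53 target, averaged 11.95 in control and 11.97 in CDKL1 shRNA cells with overlapping groups (change 0.03, adjusted p = 0.73, limma). RPL39L was at 4.98 and 4.97, next to the upper end of the background controls.

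Whether a paralog moved against its parent was tested for 7 pairs as the change of their log2 difference, with exact two-sided permutation tests. For RPL22L1 against RPL22 this change was -0.11, and for RPS27L against RPS27 it was -0.05, each at the smallest p that 3 against 3 arrays allow (exact p = 0.1). Both were 0.35 after adjustment over the 7 pairs. RPL22 was read here by its brightest probe set, which changed by -0.01, while its other 2 changed by -0.16 and -0.19, the last past the test (adjusted p = 0.0494, limma). For RPL10L against RPL10 the change was -0.21 (exact p = 0.3), and for RPL3L against RPL3 it was 0.06 (exact p = 0.7). RPL7L1, RPL26L1 and RPL39L changed against their parents by 0.04, -0.00 and -0.03. No pair could have reached 0.05 in this exact test, and no model-based test of the differences was run.

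The brightest probe set is not the whole picture, since 194 probe sets with a single symbol read the members. Fitted over every probe set, 12 of the 194 passed (6.19%), against 12.8% of all probe sets (7.43% higher and 5.34% lower). They were 3 higher and 9 lower, in 11 genes, and RPL13 was not among them (adjusted p = 0.067, limma). Of the 118 probe sets beyond the brightest, 2 rose and 7 fell. The dimmer ones were called about as often as all probe sets of such levels (12.8%): of 70 at a level of 13 or less, 8 passed (11.4%), with a median absolute change of 0.117 beside 0.0941 for all probe sets at such levels. Of 48 above 13, 1 passed, with a median absolute change of 0.0223 beside 0.042.

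Several genes thus gave different readings from different probe sets. For RPS29 the probe set 11730323_at changed by -0.40 (adjusted p = 0.0037, limma) at a mean level of 9.43, while the 2 at 14.18 and 14.16 changed by -0.02 and 0.00. For RPL31 the probe set 11746229_a_at changed by -0.44 (adjusted p = 0.0045, limma) at a mean level of 8.57, while the brightest changed by 0.00. For RPL4 the probe set 11762875_a_at changed by -0.40 (adjusted p = 0.0038, limma) at 6.17, while the brightest changed by 0.03. For RPS15A the probe set 11723251_at changed by -0.21 (adjusted p = 0.0226, limma) at 11.74, while the 3 above 14 changed by 0.00, 0.02 and 0.00. For RPL22 the probe set 11757489_x_at changed by -0.19 at 11.47, as given above. For RPS23 the probe set 11719784_x_at changed by -0.20 (adjusted p = 0.0326, limma) at 7.49, while the 2 above 14 changed by 0.03 and 0.00.

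Upward readings were fewer. For RPS14 the probe set 11725714_a_at changed by 0.22 (adjusted p = 0.046, limma), while the brightest changed by 0.00. RPL7L1 had 7 probe sets with opposite readings, among them 0.26 for 11763385_x_at (adjusted p = 0.0139, limma) and -0.40 for 11760105_at (adjusted p = 0.053, limma). These probe sets can read different transcript ends or variants of a gene, which the deposited table does not tell apart.

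**Figure D5:**
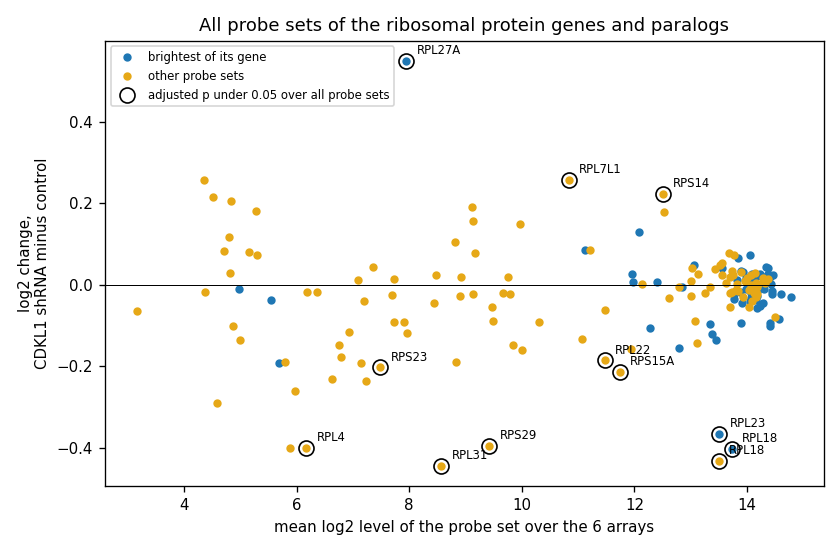
Log2 change (CDKL1 shRNA minus control shRNA) of every probe set of the core genes and paralogs against its mean log2 level over 6 arrays, with circles around the 12 past the test. Above a level of 13 nearly all lie close to 0, apart from RPL18 and RPL23, and most called probe sets lie at lower levels.

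The choice of probe set mattered for the count of calls. Of the 64 core genes, 56 were read by probe sets of the _s or _x type, which can bind related transcripts, and ribosomal protein genes have many processed pseudogenes. When such probe sets were left out, 45 members remained, of which 2 rose and 7 fell (20%), against 14.2% of all genes (7.6% higher and 6.63% lower). The 9 were RPL18, RPL27A, RPL31, RPL4, RPL7L1, RPS14, RPS15A, RPS18 and RPS29. With a variance that follows the level, 2 members rose and 10 fell (15.8%), against 23.1% of all genes (12.7% higher and 10.4% lower). Beyond the 4 genes called before, these were RPL3, RPL12, RPL13A, RPL22L1, RPL36, RPS9 and RPS10, which fell, and RPS27, which rose. Among the 70 members above the median level of all genes, 1 rose and 5 fell (8.57%), against 44% of all such genes (24.4% higher and 19.6% lower), with RPS9 and RPS10 added. With the ACTB difference as a covariate 0 members passed, against 1.21% of all genes (0.601% higher and 0.607% lower), while the changes of RPL18, RPL23 and RPL27A were -0.37, -0.32 and 0.61 (adjusted p = 0.0823, 0.133 and 0.13, limma). With the replicate number as a block, 1 member rose and 2 fell (3.95%), against 9.94% of all genes (5.65% higher and 4.3% lower), although the numbers did not pair the samples.

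Other messages known to carry a TOP tract were listed apart. Of 16 such genes, 0 passed in limma and 3 had an unadjusted p under 0.05 (18.8%), and the median change was 0.01. Over all genes these shares were 16.8% and 29.8%. Of the 16, 13 lay above a level of 13. Among all genes above that level that are no member, 9.66% passed and 22.1% had an unadjusted p under 0.05. NAP1L1, a histone chaperone, changed by -0.15 (adjusted p = 0.112), TPT1, the translationally controlled tumour protein, by 0.11 (adjusted p = 0.109), and EIF3H and EIF3F, subunits of the initiation factor eIF3, by 0.11 and -0.09 (limma). The elongation factor gene EEF1A1 changed by 0.03 and EEF2 by 0.03.

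The genes that control the translation of TOP messages were examined at the level of their own messages. Of 14 genes of a list of the mTORC1 pathway, its effectors and MYC, 5 rose and 1 fell (42.9%, against 16.8% of all genes). All 14 lay above the median level of all genes (lowest 7.72, beside 7.28). Among genes above that median, fitted apart, 44% passed. MYC, a transcription factor that drives ribosome synthesis, rose by 0.24 (adjusted p = 0.00727), and EIF4EBP2, a repressor of cap-dependent translation, rose by 0.33 (adjusted p = 0.0074, limma for both). TSC1, an inhibitor of mTORC1, rose by 0.26 (adjusted p = 0.012), and RPTOR, the mTORC1 scaffold, rose by 0.22 (adjusted p = 0.0268, limma for both). The S6 kinase gene RPS6KB2 rose by 0.21 (adjusted p = 0.0298), and EIF4EBP1 fell by 0.19 (adjusted p = 0.0386, limma for both).

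Those calls differed in how firmly they held. MYC and EIF4EBP2 kept theirs with each array left out, but with all probe sets averaged EIF4EBP2 changed by 0.15 and did not pass (adjusted p = 0.0859, limma). TSC1 lost its call without CDKL1 replicate 3 (adjusted p = 0.0518, limma). EIF4EBP1 lost its call without any 1 array, RPS6KB2 without any 1 except CDKL1 replicate 2, and RPTOR without any 1 except control replicate 1. With all probe sets averaged RPTOR changed by -0.02. MTOR changed by 0.09 and LARP1 by 0.08, neither past the threshold. These are message levels, and no measure of kinase activity or of translation was among the data.

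Of 10 chaperones and importers that escort new ribosomal proteins, 1 passed (10%, against 16.8% of all genes). All 10 lay above the median level of all genes (lowest 7.64, beside 7.28). Among genes above that median, fitted apart, 44% passed. BCCIP, which binds RPL23, rose by 0.18 (adjusted p = 0.041, limma). It lost that call when any 1 array was left out, and with all probe sets averaged it changed by -0.13. IPO9 changed by -0.16 (adjusted p = 0.12, limma). Of 8 genes of the p53 response to ribosomal stress, 1 passed (12.5%, against 16.8% of all genes). All 8 also lay above that median level (lowest 7.78). BBC3, which encodes the death effector PUMA, fell by 0.34 (adjusted p = 0.0137, limma). It was no longer past the threshold without control replicate 3, CDKL1 replicate 1 or CDKL1 replicate 3 (adjusted p at most 0.0537). MDM2 changed by 0.19 (adjusted p = 0.0869) and CDKN1A by -0.02 (adjusted p = 0.885, limma).

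The proteins of the mitochondrial ribosome, which translates the few messages of the mitochondrial genome, were compared as a second set. Of 74 genes, 7 rose and 6 fell (17.6%, beside 16.8% of all genes), and their median absolute change was 0.0906 beside 0.0265 for the cytosolic members. All 74 lay above the median level of all genes (lowest 8.73, beside 7.28). Among genes above that median, fitted apart, 44% passed, and the counts of this set in that fit are given below. MRPL37 had a change of -0.59 (adjusted p = 0.000309, limma), from 10.95 ± 0.030 to 10.36 ± 0.022 (SD, n = 3 each). MRPL33 rose by 0.34 (adjusted p = 0.00282) and MRPL55 by 0.30 (adjusted p = 0.00878), while MRPL24 fell by 0.26 (adjusted p = 0.012, limma for all). These 4 had the smallest adjusted p-values of the list. None of the 74 had a mean above 13, so this set lies lower on the array than the cytosolic one, and the difference between the sets was not tested. Whichever array was left out, 2 to 4 of the mitochondrial genes rose and 3 to 4 fell. In those fits the share of all genes that passed also dropped, to between 9.01% and 13.2%.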

How the data were processed

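Total RNA of 6 DLD1 samples, 3 per group, was hybridised to Affymetrix arrays. The deposited table holds log2 values that the authors made with RMA, per the submitters' processing notes; RMA subtracts background, quantile-normalises the arrays and sums up probes, with a version not given in the sources used here. All value columns were used. The labels name the 3 samples of each group as independent, but not as separate cultures or infections, and the spread behind the p-values may therefore be technical. Of 49395 probe sets, 44988 carried 1 symbol, and the brightest per gene gave 18132 genes. Groups were compared with lmFit and eBayes of limma 3.58.1 in R 4.3.3, with Benjamini-Hochberg adjustment over all genes and a threshold of 0.05; intervals cover 95%. In simulated data with 50 genes changed at each size, the test recovered 8% at 1.15-fold, 42% at 1.25-fold, 72% at 1.5-fold and 100% at 2-fold. Far fewer genes were changed in that simulation than the 3040 that passed here, which makes its adjusted threshold stricter. Its changed genes were drawn from all levels, so these shares do not give the recovery for the bright members. Single values were tested by exact two-sided permutation. The number of arrays limits the precision, and small changes can be missed by the test. Members and gene lists were chosen with earlier results of these data known. Genes were named by rule: CDKL1, called members without overlap between groups, paralog pairs, RPL5, RPL11, RPS6, RPS19, stalk genes, FAU, and up to 4 genes per other list with the smallest adjusted p; all others named were chosen after their values were seen. The level of RPS4Y2 is not given. Alternatives were other scalings, probe set choices, variance models, an ACTB covariate, a replicate block and leaving out each array. The replicate numbers did not pair the samples, since same-numbered deviations correlated at -0.0645, -0.115 and 0.0549.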

Additional observations from a re-analysis of the deposited data

How the results depend on the processing

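Limits: 3 arrays per group, no scanner files and no detection calls were at hand, and signals near the top of the scale or near the background controls were not weighed. Where a cause is not given below, it was not tested.

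RPL18, RPL23 and RPL27A kept direction and call under every setting in which their probe sets were used, except the ACTB covariate, under which 0 members rose and 0 fell, 219 of all genes passed, and of the mitochondrial set 0 rose and 1 fell. The replicate block gave 1803 genes; in the mitochondrial set 3 rose and 3 fell. Pairing by the replicate numbers left 1 member up and 2 down, the one lost being RPL13. Members rising and falling numbered 2 and 7 without _s and _x probe sets, 2 and 10 with the intensity trend, and 3 and 9 over every probe set; 5 fell among genes above the median level, and 0 rose above level 13. The fit of every probe set and the limit of 13 were chosen after seeing the data. Mitochondrial genes falling numbered 3 with array medians subtracted and 3 without _s and _x probe sets. Of the mitochondrial set, 14 rose and 10 fell above the median level, where 44% of all such genes passed. With the trend 15 rose and 11 fell, where 23.1% of all genes passed. The members' median change was 0.0060 with medians subtracted, -0.018 with all probe sets averaged, -0.018 without _s and _x probe sets and 0.00067 above the median level. With 1 array left out, 1633 to 2399 genes passed, members rising stayed at 1 and falling ranged from 2 to 3, mitochondrial genes rising ranged from 2 to 4 and falling from 3 to 4, the members' median ranged from -0.0139 to -0.0019 and CDKL1 from -0.29 to -0.12.

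Signs turned for values that had not passed, except RPTOR and BCCIP, which had; turned values did not pass either, except RPL7L1 without _s and _x probe sets (adjusted p = 0.0478, limma). With all probe sets averaged the changes were RPS6 0.0088, RPLP1 -0.011, RPL7L1 -0.074, RPL39 -0.0041, RPL35A -0.069, RPTOR -0.021, BCCIP -0.13, IPO9 0.087, RPL7L1 against RPL7 -0.12, RPL22L1 against RPL22 0.098 and RPS27L against RPS27 0.047. Without _s and _x probe sets the changes were RPS6 0.081, RPLP2 -0.064, RPL7L1 -0.40 and PPM1D -0.052. With further quantile normalization the changes were RPL26L1 -0.0051, RPL36AL -0.017 and RPL39L 0.011. With medians subtracted the changes were RPL39L 0.0015 and RPL22 0.0062. With the ACTB covariate the changes were RPL5 0.046, RPL11 -0.018, RPS19 0.0090, RPL26L1 -0.0041, RPS27L -0.019, RPL22 0.00016 and PPM1D -0.047. With 1 array left out the ranges that crossed 0 were RPLP1 -0.0014 to 0.030, RPL3L -0.13 to 0.046, RPL36AL -0.019 to 0.027, RPL39L -0.053 to 0.043, RPL22 -0.018 to 0.017, RPL26L1 -0.0017 to 0.011, RPL39 -0.019 to 0.058, RPL26 -0.028 to 0.036, RPL5 -0.034 to 0.0044, RPL3L against RPL3 -0.047 to 0.16, RPL7L1 against RPL7 -0.015 to 0.10 and RPL26L1 against RPL26 -0.033 to 0.035.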

Other observations

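The 4 pseudogenes that the name rule left out were measured by probe sets annotated to them alone. That of RPL23AP82 is of the _x type, which can bind related transcripts. RPS2P32 changed by -0.12 (adjusted p = 0.0949, limma) and RPL13P5 by -0.11 (adjusted p = 0.268), while RPL23AP82 changed by 0.11 (adjusted p = 0.26) and RPL36AP33 by 0.16 (adjusted p = 0.195). None of the 4 passed, and RPS2P32 and RPL23AP82 had groups that did not overlap, as had 35.7% of all genes. The mean of RPL36AP33, 4.87, lay within the range of the background control probe sets, 2.97 to 4.92.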
